A study of Danio rerio with 7 samples.

Results

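Hox genes and their partners of the Meis and Pbx families were examined in PAC2 cells, a permanent line made from zebrafish embryos. They were taken as every Ensembl identifier whose gene name begins with hoxa, hoxb, hoxc or hoxd and a number, with meis, or with pbx and a number, in either case. Of the identifiers of the gene name table, 56 are described here (47 Hox, 9 meis and pbx), of which 17 had a value (12 Hox, 5 meis and pbx) among the 17570 genes of the matrix. The other 39 had no value among the genes analysed here, and nothing is said of their level. The RNA sequencing compared 4 day 8 libraries (exponential phase, replicates 1, 2, 3 and 4) with 3 day 14 libraries (stationary phase, replicates 1, 2 and 4). All cells were untreated and of this 1 line, and were kept at the same temperature in the same serum-supplemented medium. Each replicate number was a passage of its own, started on its own day, and several wells were pooled in a library. As the medium was exchanged once, on day 7 after seeding, growth phase, age of the culture and time since the fresh medium cannot be told apart.

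Hox genes encode homeodomain transcription factors that give cells of the embryo their position along the axis from head to tail. They lie in clusters named A to D, and the number in a name is the paralog group, the row of related genes found at the same place in each cluster. Genes of low number are active towards the head, up to the hindbrain, and genes of high number towards the tail and in the far ends of fins and limbs. In zebrafish the clusters were duplicated, so that many genes exist as an a and a b copy. Hox proteins bind DNA weakly and with little choice when alone, and proteins of the Pbx and Meis families, homeodomain proteins of the TALE class, bind beside them and make the choice sharper. Cultured fibroblasts of mammals are known to keep the Hox pattern of the place they were taken from. In many cases the gene name table gives a zebrafish gene an upper case symbol without the letter of its copy, and such names are spelled here as the table has them.

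The values come from estimated counts, which were rounded, scaled between libraries with TMM and expressed as CPM, the count of a gene relative to the scaled total of its library. The 7 libraries held between 11252559 and 33414743 estimated counts, so that 1 count was worth between 0.0300 CPM (replicate 1 of day 14) and 0.0773 CPM (replicate 1 of day 8), and genes near 1 CPM rest on few counts in the smallest library. CPM are not divided by transcript length, since no lengths were used here, and levels of different genes are therefore not ranked. Day 14 was tested against day 8 with edgeR's quasi-likelihood test over all 17570 genes, and a gene was called at a Benjamini-Hochberg adjusted p below 0.05. The labels name the line and its embryonic origin and no cell type. Of 13 listed markers of fibroblasts and mesenchyme, 8 were found by name, and all 8 had a value. Nothing is said of the names not found. The summed level of the 8 ran from 2611 to 4718 CPM on day 8 and from 4900 to 6587 CPM on day 14. The 5 of 9 epithelial markers with a value summed to between 2574 and 2993 CPM on day 8 and between 2862 and 2994 CPM on day 14, most of it krt8, while cdh1 (log2 difference −1.26, adjusted p 3.4e-04) and krt4 (−0.59, adjusted p 0.0122) fell and epcam, cldnb, cldne and grhl3 had no value. The neural markers sox2, sox3, elavl3 and neurod1, the blood markers gata1a, ptprc, lcp1 and hbae1.1, and the neural crest markers sox10, foxd3 and tyr had no value either. Of the same lists tubb5 (47.4 to 72.2 CPM), nes, gfap and elavl4 (0.111 to 2.55 CPM) and crestin (3.83 to 14.5 CPM) had one and were not called, and runx1 rose from between 11.6 and 23.9 CPM to between 31.8 and 46.3 CPM (adjusted p 0.0116). In an edgeR fit with the replicate number as a block, gfap was called higher (log2 difference 1.87, adjusted p 0.0172). In that fit crestin was called lower (−1.15, adjusted p 3.0e-04), while tubb5, nes and elavl4 were again not called. The 3 skeletal muscle markers found by name had a value and were not called, myog at 11.1 to 18.4 CPM and myod1 and myf5 at 1.15 to 2.94 CPM. Of the endothelial markers, cdh5 had no value and tie1 (0.991 to 1.92 CPM) was not called. kdrl fell from between 1.41 and 6.21 CPM to between 0.958 and 2.28 CPM (log2 difference −1.47, adjusted p 0.0367), a call made in 12 of 17 alternative fits.

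The Hox genes with a value were unevenly spread over the clusters, which are counted here by letter, with the a and b copies of the duplicated clusters together. HoxB held 7 of its 15 named identifiers, HoxC 4 of 15, HoxA 1 of 10 and HoxD 0 of 7. By position, 9 of the 17 identifiers of paralog groups 2 to 6 had a value, against 2 of the 23 of paralog groups 9 to 13. These limits leave out groups 1 (0 of 3), 7 (0 of 1) and 8 (1 of 3). Counted over groups 1 to 3, 4 of 9 identifiers had a value, and over groups 4 to 8, 6 of 15. The run from HOXB2 to HOXB6 was the only unbroken one, since hoxb1a, hoxb1b and HOXB7 had no value, and of the HoxB genes beyond them only hoxb8b had one. In HoxA the gene described with a value was HOXA3, and in HoxC they were hoxc3a, HOXC5, HOXC10 and HOXC13, of which the last pair stood alone among the posterior groups. A value depends on the filter for low expression that the authors applied, and the lowest kept gene reached only 0.443 CPM in 3 libraries.

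**Figure D1:**
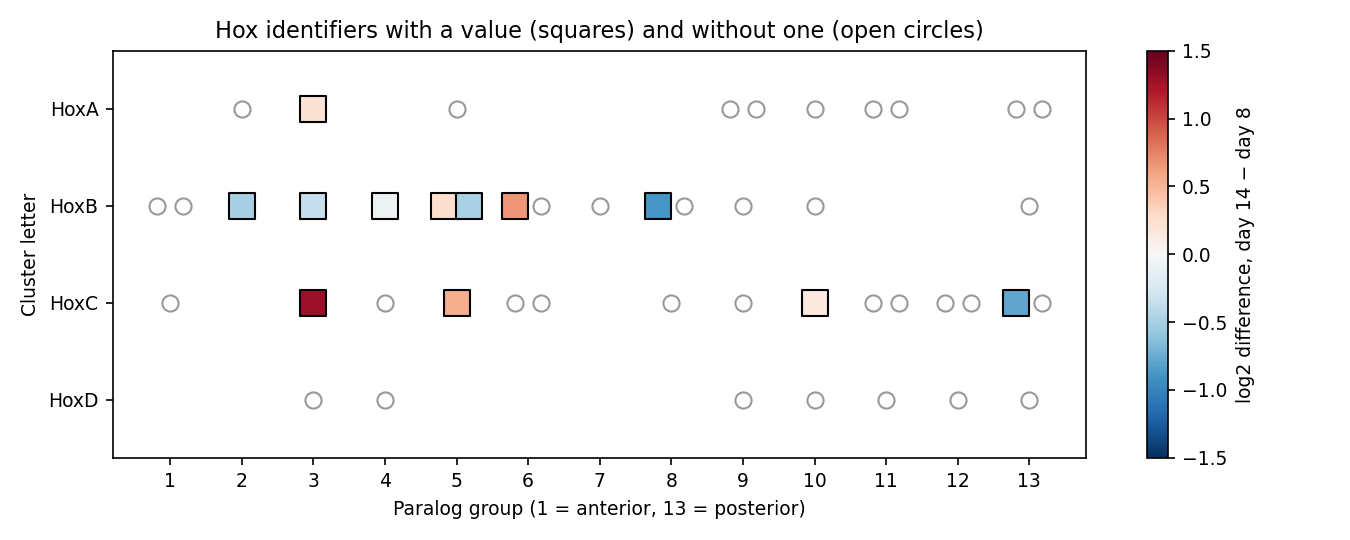
Hox identifiers of the gene name table by cluster (rows) and paralog group (columns, anterior on the left). Squares had a value and are coloured by the log2 difference between day 14 and day 8, open circles had none, and the 7 squares of the HoxB row and the empty HoxD row stand out.

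HOXA3 and the 5 genes of the run HOXB2 to HOXB6 were well above the low end of the matrix in every library. HOXA3, which acts in pharyngeal arch and hindbrain development, had 31.0, 32.3, 38.7 and 34.2 CPM in the day 8 replicates 1 to 4, and 35.5, 39.0 and 45.3 CPM in the day 14 replicates 1, 2 and 4. The growth phases overlapped. HOXB4, a gene of the posterior hindbrain and spinal cord that is also known from blood stem cells, had 56.2, 69.0, 60.7 and 63.1 CPM on day 8 and 58.2, 68.5 and 50.0 CPM on day 14, so that 2 of the day 14 libraries lay within the day 8 range and 1 below it. HOXB5 (ENSDARG00000013057) had 173, 175, 190 and 185 CPM on day 8 and 201, 252 and 195 CPM on day 14. A second identifier that the table also calls HOXB5 (ENSDARG00000054030) stayed between 0.384 and 2.34 CPM.

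The next Hox genes stayed at low or middle values. HOXC10, a gene of the lumbar and hindlimb level in mammals, had 8.64 to 12.3 CPM on day 8 and 10.4 to 12.7 CPM on day 14. HOXC13, known in mammals from hair and nail, had 1.93 to 3.03 CPM on day 8 and at most 1.63 CPM on day 14. hoxb8b had 0.870 to 2.63 CPM on day 8 and 0.524 to 1.38 CPM on day 14. The remaining genes, hoxc3a and HOXC5, did not reach a geometric mean of 1 CPM in either growth phase.

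Summed within each library, the 7 HoxB genes made up 385 to 425 CPM on day 8 and 429 to 552 CPM on day 14, out of 428 to 476 CPM and 478 to 607 CPM for all 12 Hox genes. The 4 HoxC genes summed to between 12.2 and 16.2 CPM and between 13.7 and 15.8 CPM. By paralog group, groups 3 and 5 were the groups with more than 1 gene. Group 3 (HOXA3, HOXB3, hoxc3a) held 81.1 to 95.9 CPM on day 8 and 80.3 to 87.5 CPM on day 14. Group 5 held 176 to 193 CPM and 197 to 254 CPM. Longer transcripts add more counts to such sums. The summed HoxB level did not overlap between growth phases, with a fold of 1.17 on day 14, but without TMM scaling its log2 ratio was 0.04 instead of 0.22, so the sums give no direction.

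**Figure D2:**
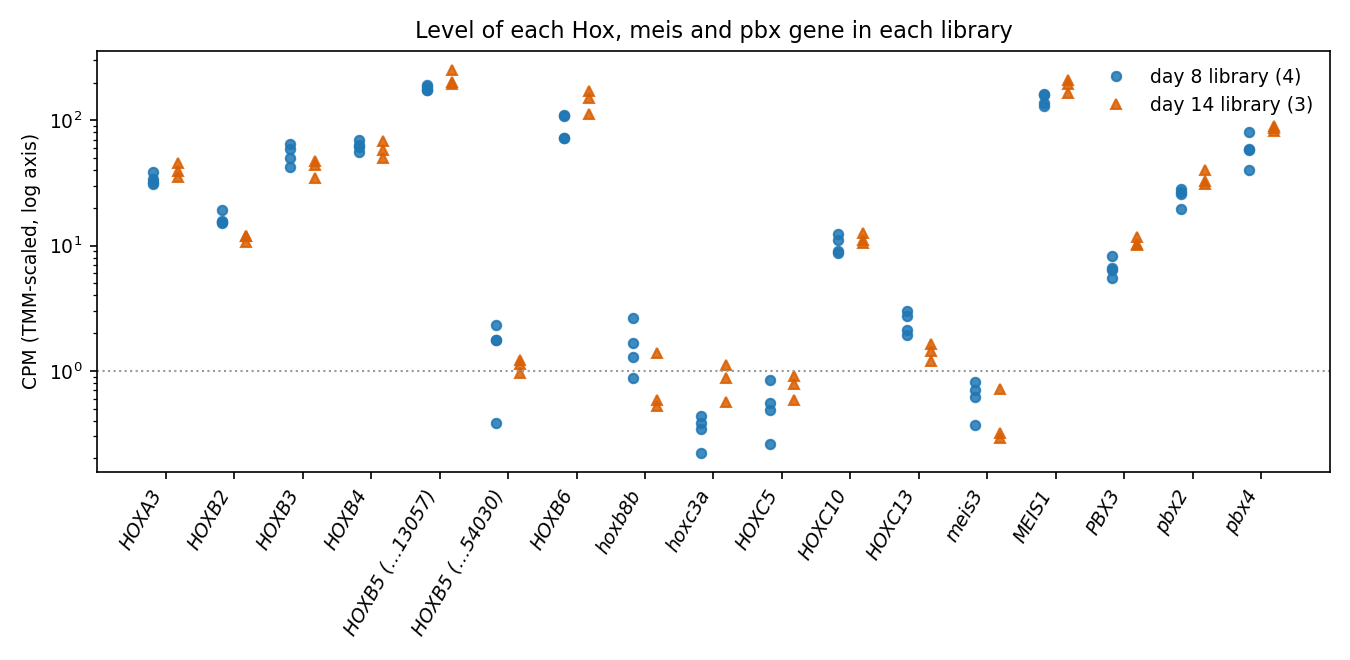
CPM (TMM-scaled, log axis) of each of the 17 genes in each library, with circles for the 4 day 8 libraries and triangles for the 3 day 14 libraries. The dotted line marks 1 CPM, and HOXB5 (ENSDARG00000013057) and MEIS1 lie above 100 CPM in every library.

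Of the 17 genes, 3 were called between the growth phases by edgeR. HOXB6 and PBX3 rose on day 14, and HOXB2 fell. Over all genes tested 25.3% were called, 12.0% higher and 13.3% lower, so 3 of 17 does not exceed the background. The median log2 difference was 0.23 for the 17 genes, 0.03 for the 12 Hox genes and 0.47 for the 5 meis and pbx genes, beside 0.00 for all genes. In bulk RNA, a change in the share of cells that express a gene cannot be told apart from a change in the RNA per cell. With the replicate number as a block, which the study's passages pair, 8 of the 17 genes were called (5 higher, 3 lower), against 36.6% of all genes. The edgeR count fell to 1 without replicate 2 of day 8, and to 0 without replicate 2 or without replicate 4 of day 14, where 7 and 6 genes had an unadjusted p below 0.05. Calls over all 17570 genes fell in these fits too, from 4445 to 3145, 2719 and 2647. Without TMM scaling 2 of the 17 genes were called, HOXB2 and HOXC13, both lower, against 25.5% of all genes. The median log2 difference of all genes then moved by −0.17.

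In 9 of the 17 genes the day 8 and day 14 ranges were apart, 7 of them higher and 2 lower, against 34.8% of all genes. Of the 5 meis and pbx genes 4 did so, all higher, and of the 12 Hox genes 5, of which HOXB5 (ENSDARG00000013057), HOXB6 and hoxc3a were higher and HOXB2 and HOXC13 lower. Within the 3 replicates present on both days, 8 of the 17 genes were higher on day 14 in all 3, 4 were lower in all 3 (HOXB2, HOXB3, hoxb8b, HOXC13) and 5 were mixed. Over all genes, 31.5% were higher and 31.6% lower in all 3.

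**Figure D3:**
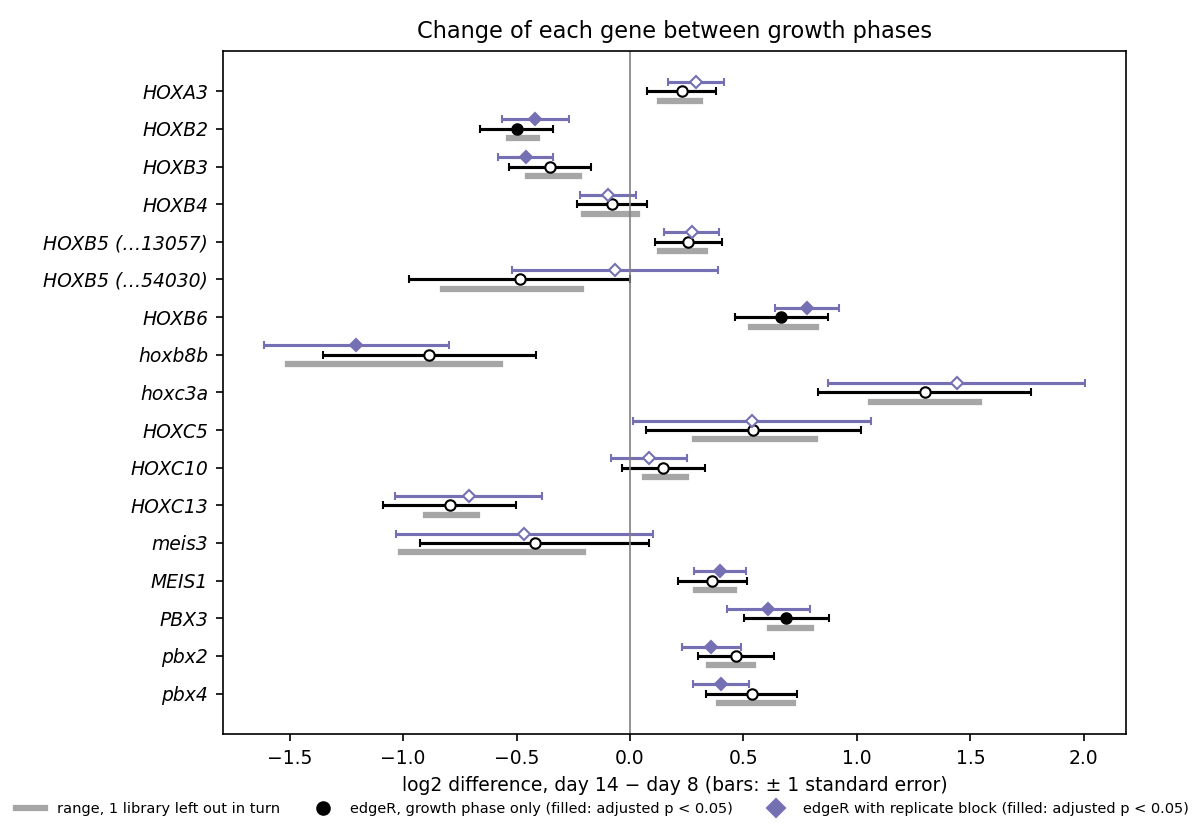
Log2 difference between day 14 and day 8 for each gene, with standard errors. Black circles are the edgeR test with growth phase only and purple diamonds the fit with the replicate block (filled where the adjusted p is below 0.05), and grey bars span the differences with 1 library left out in turn, which cross 0 for HOXB4.

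HOXB2 (ENSDARG00000000175), which patterns the hindbrain segments and the second pharyngeal arch, fell. It had 15.1, 15.5, 19.1 and 15.6 CPM in the day 8 replicates 1 to 4, a mean of 16.3 ± 1.89 CPM (SD, n = 4). On day 14 it had 12.0, 11.9 and 10.7 CPM in replicates 1, 2 and 4, a mean of 11.5 ± 0.737 CPM (SD, n = 3). Every day 14 library lay below every day 8 library, and the highest value was that of replicate 3 of day 8, which has no day 14 partner. The log2 difference was −0.50 (SE 0.16), 0.707-fold, with an edgeR adjusted p of 0.0380, and −0.42 (adjusted p 0.0348) with the replicate block. The call was lost without replicate 2 (adjusted p 0.0781), 3 (0.0662) or 4 (0.0628) of day 8 and without replicate 1 (0.0794), 2 (0.0926) or 4 (0.139) of day 14, with the lower direction kept in each of these fits.

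HOXB6, a gene of the trunk and of the forelimb and lateral plate in mammals, rose. It had 71.8, 72.6, 110 and 109 CPM on day 8, a mean of 90.8 ± 21.5 CPM (SD, n = 4), and 112, 170 and 151 CPM on day 14, a mean of 144 ± 29.9 CPM (SD, n = 3). The day 8 libraries fell into a lower pair, replicates 1 and 2, and a higher pair, replicates 3 and 4, and replicate 1 of day 14 lay only just above the latter. The log2 difference was 0.67 (SE 0.20), 1.59-fold, with an edgeR adjusted p of 0.0315, and 0.78 (adjusted p 8.7e-04) with the replicate block. The call was lost without replicate 1 (adjusted p 0.0529) or 2 (0.0929) of day 8, without replicate 2 (0.146) or 4 (0.0994) of day 14, and without TMM scaling (0.056).

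HOXB3, whose front limit in the hindbrain lies between those of HOXB2 and HOXB4, was not called. It had 64.5, 59.1, 42.0 and 50.0 CPM on day 8 and 44.2, 47.6 and 34.7 CPM on day 14. The values of day 14 replicates 1 and 2 lay inside the day 8 range, but within each replicate day 14 was the lower. The log2 difference was −0.35 with an adjusted p of 0.177, and −0.46 with an adjusted p of 0.00715 in the replicate block. hoxb8b was likewise lower in each of the 3 replicates, with a log2 difference of −0.88 (adjusted p 0.192) and of −1.21 (adjusted p 0.0294) with the block. HOXC13 had a log2 difference of −0.79 (adjusted p 0.0661), and −0.71 (adjusted p 0.0995) with the block. hoxc3a went from 0.386, 0.222, 0.435 and 0.341 CPM to 0.570, 0.874 and 1.12 CPM, with a log2 difference of 1.30 (SE 0.47, adjusted p 0.0599), at levels of few counts.

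Along the HoxB run the differences were ordered by paralog group, a pattern chosen after its values were seen and given here as a description without a test. The log2 differences were −0.50 for HOXB2, −0.35 for HOXB3, −0.08 for HOXB4, 0.26 for HOXB5 (ENSDARG00000013057) and 0.67 for HOXB6. This rising order was found in 15 of 17 alternative fits. HOXB3 lay below HOXB2 in the blocked fit (−0.46 against −0.42) and when replicate 3 of day 8 was omitted (−0.45 against −0.41). Replicate 3 has no day 14 partner, so the blocked fit takes no difference from it either. It had the highest HOXB2 (19.1 CPM) and the lowest HOXB3 (42.0 CPM) of day 8. The step from HOXB2 to HOXB3 thus rested on this 1 library, which the 15 fits all kept. HOXB2 and HOXB3 differed by less than the standard error of either. The other 2 HoxB genes with a value stood outside the order. HOXB5 (ENSDARG00000054030) was at −0.49 and hoxb8b, by its name a b copy, at −0.88, both with few counts. A name without a copy letter does not tell in which of the duplicated clusters a gene lies.

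Taken library by library against the day 8 mean, the 3 day 14 libraries rose from HOXB2 to HOXB6, with slopes of 0.19, 0.34 and 0.35 log2 units per paralog group in replicates 1, 2 and 4. The 4 day 8 libraries had slopes of −0.07, −0.06, 0.06 and 0.08 in replicates 1 to 4. Since the day 8 mean was the reference, the day 8 slopes had to cancel out, so that some lean each way by construction. Each day 8 library is also part of its own reference, which makes its slope smaller. The day 14 slopes restate, library by library, the differences for which the order was described. The slopes are therefore a description and no separate support for it.

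**Figure D4:**
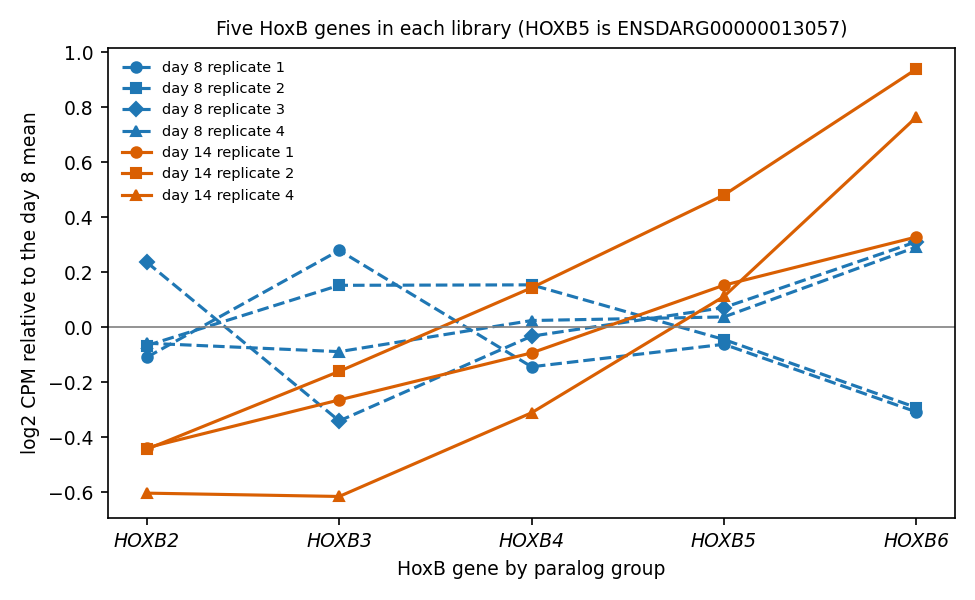
Log2 CPM of HOXB2, HOXB3, HOXB4, HOXB5 (ENSDARG00000013057) and HOXB6 in each library relative to the day 8 mean of the gene. Solid orange lines are the 3 day 14 libraries and dashed blue lines the 4 day 8 libraries, and the day 14 lines run from below 0 at HOXB2 to above 0 at HOXB6.

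Ratios of 2 genes within a library do not depend on the scaling between libraries, and the lengths of the transcripts cancel when a ratio is followed from one library to the next. The ratio of HOXB6 to HOXB2 counts was 4.76, 4.68, 5.76 and 6.97 in the day 8 replicates 1 to 4, and 9.30, 14.3 and 14.1 in the day 14 replicates 1, 2 and 4. These did not overlap, which had to follow, since HOXB6 lay higher and HOXB2 lower in every day 14 library than in every day 8 library. The ratio of HOXB6 to HOXB4 was 1.28, 1.05, 1.82 and 1.72 on day 8 and 1.92, 2.48 and 3.02 on day 14. HOXB5 (ENSDARG00000013057) to HOXB2 went from between 9.92 and 11.9 to between 16.7 and 21.1, which had to be apart for the same reason. Like the other ratios given here, both come from the counts in which the order was seen. All of them are a description and no further support for the order. HOXB4 to HOXB2 went from between 3.17 and 4.45 to between 4.68 and 5.74. HOXB5 to HOXB3 was only just apart, with 4.52 as the highest day 8 ratio and 4.54 as the lowest on day 14, and the ratios of HOXB6 to HOXB3 and of HOXB6 to HOXB5 overlapped between growth phases.

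Overlapping transcripts bear on how reads were assigned within a cluster. In the RefSeq annotation of GRCz12tu, another build than that of the counts, the span of hoxb3a overlaps those of hoxb4a, hoxb5a and hoxb6a. The span of hoxa3a overlaps those of hoxa4a and hoxa5a, and that of hoxc3a those of 5 other HoxC genes. Likewise, hoxb1b overlaps hoxb5b and hoxb6b, and hoxd3a overlaps hoxd4a. Whether the transcripts share sequence was not examined. Kallisto splits reads that fit transcripts of several genes, which leaves fractional counts. The estimates of HOXA3, HOXB2, HOXB4, HOXB5 (ENSDARG00000013057), HOXB6, HOXC5, HOXC10 and HOXC13 were exactly whole numbers in all 7 libraries. Those of HOXB3 and of hoxc3a were whole in 5 and those of hoxb8b in 6. HOXB5 (ENSDARG00000054030) was whole in 1 library, and its value is therefore uncertain. Sharing of reads was not tested further.

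Pbx genes encode the partners with which Hox proteins of the anterior and middle groups bind DNA, and 3 of the 4 Pbx identifiers described here had a value. PBX3 rose, and pbx2 and pbx4 were not called. Summed, the 3 genes held 64.9 to 117 CPM on day 8 and 123 to 138 CPM on day 14, without overlap. That had to follow, since each of the 3 lay higher in every day 14 library than in every day 8 library. Without TMM scaling 0 of the 3 were called, beside 25.5% of all genes.

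PBX3, expressed widely in the embryonic nervous system, had 8.27, 6.58, 5.49 and 6.40 CPM on day 8 and 10.2, 10.4 and 11.7 CPM on day 14, again without overlap. Its log2 difference was 0.69 (SE 0.19), 1.61-fold, with an adjusted p of 0.0174, and 0.61 (adjusted p 0.0152) with the block. The call was lost without replicate 2 (adjusted p 0.0503) or 4 (0.0755) of day 14 and without TMM scaling (0.12).

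pbx4, the partner of Hox proteins in the zebrafish hindbrain, had 81.0, 59.2, 39.8 and 57.6 CPM on day 8 and 90.2, 81.9 and 86.0 CPM on day 14. The day 14 libraries were above those of day 8, but replicate 1 of day 8 came close to them. The log2 difference was 0.54 (SE 0.20) with an adjusted p of 0.0696, and 0.40 (adjusted p 0.0172) with the block. pbx2 had 28.0, 25.7, 19.6 and 26.9 CPM on day 8 and 32.6, 31.0 and 40.4 CPM on day 14, with a log2 difference of 0.47 (adjusted p 0.0606) and of 0.36 (adjusted p 0.0423) with the block. Without replicate 1 of day 8, pbx2 (adjusted p 0.0428) and pbx4 (0.008) were called as well.

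In pbx2, pbx4 and PBX3, replicate 1 of day 8 was the highest and replicate 3 the lowest of the day 8 libraries. Among the 8 fibroblast markers with a value, 4 showed the same extremes on day 8 (col1a1a, col1a2, pdgfra, pdgfrb), while twist1a and twist1b were lowest in replicate 1 and lum and dcn were highest in replicate 4 and lowest in replicate 3. col1a2, a chain of type I collagen, had 2362 CPM in replicate 1 and 1258 CPM in replicate 3, and rose to between 2434 and 3515 CPM on day 14 (log2 difference 0.77, adjusted p 0.0378), a call made in 10 of 17 alternative fits. pdgfra, a receptor of mesenchymal cells, was at 166 CPM in replicate 1 and 103 CPM in replicate 3 on day 8, and rose to between 217 and 225 CPM (log2 difference 0.70, adjusted p 0.00988). Of the same 4, col1a1a (log2 difference 0.44, adjusted p 0.23) and pdgfrb (−0.017, adjusted p 0.937) were not called. Of the 8 fibroblast markers found by name, 4 were called higher (col1a2, pdgfra, twist1a and lum) and 0 lower, against 12.0% and 13.3% of all genes. The part of these differences in the Pbx values was not tested.

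Meis proteins bind both Pbx and posterior Hox proteins, and 2 of the 5 named Meis identifiers had a value. MEIS1, known from haematopoietic and limb progenitors, had 163, 138, 158 and 130 CPM on day 8 and 195, 209 and 165 CPM on day 14. Its lowest day 14 library was only just above its highest day 8 library. The log2 difference was 0.36 (SE 0.15) with an adjusted p of 0.101, and 0.40 (adjusted p 0.0129) with the replicate block. meis3, which acts in the hindbrain, was between 0.291 and 0.810 CPM in all libraries. The count estimates of MEIS1 and pbx4 were fractional in every library and those of PBX3 in all but 1, and which other genes such reads matched was not tested.

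Lists of 142 names took in genes that set or keep Hox expression, other Hox cofactors, and positional genes outside the Hox clusters. Of the names, 87 were found and 57 had a value. Of these, 10 were called (17.5%, against 25.3% of all genes), 7 higher and 3 lower. With the replicate block 18 were called (31.6%, against 36.6% of all genes), 7 higher and 11 lower. Without TMM scaling 5 were called, beside 25.5% of all genes. Without replicate 4 of day 14 the count was 6, while calls over all genes fell from 4445 to 2647.

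Polycomb proteins keep Hox genes silent outside their territory, and 5 of the 19 Polycomb genes with a value were called, which is 26.3% and near the 25.3% of all genes. Within the complex that methylates lysine 27 of histone H3, ezh2, its main methyltransferase in dividing cells, went from between 12.7 and 14.3 CPM to between 8.42 and 9.10 CPM (log2 difference −0.61, adjusted p 0.0139). Its subunit eed fell from between 30.8 and 48.3 CPM to between 20.3 and 25.2 CPM (log2 difference −0.80, adjusted p 0.00567), and the accessory subunit mtf2 from between 20.6 and 24.0 CPM to between 12.4 and 14.0 CPM (log2 difference −0.74, adjusted p 0.0037). The alternative methyltransferase ezh1, which prevails in resting cells of mammals, rose from between 10.9 and 14.2 CPM to between 20.6 and 22.7 CPM (log2 difference 0.71, adjusted p 0.00571). cbx7a, a reader of the methyl mark, rose more than any other gene of these lists, from between 32.8 and 52.4 CPM to between 123 and 201 CPM (log2 difference 1.96, adjusted p 1.2e-04). None of these 5 overlapped between growth phases, which adds little, since they were picked as called. Ranges were apart in 34.8% of all genes, and also in the uncalled Polycomb genes pcgf5a, phc1, cbx2 and rybpa. The call of ezh2 was lost without replicate 2 of day 8 (adjusted p 0.0535) or replicate 1 of day 14 (0.0538), and that of ezh1 without TMM scaling (0.0596). The median log2 difference of the 19 genes was −0.16, so the list had no common direction.

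Trithorax proteins, which oppose Polycomb, and the H3K27 demethylases gave 1 call among 17 genes with a value (5.88%, against 25.3% of all genes). It was kdm6bb, a demethylase of that mark, which rose from between 7.45 and 21.5 CPM to between 24.4 and 34.3 CPM (log2 difference 1.02, adjusted p 0.0187). That call was lost without replicate 1 (adjusted p 0.057) or 4 (0.0794) of day 14 and without TMM scaling (0.0893). With the block 6 of the 17 were called (35.3%, near the 36.6% of all genes), kdm6bb higher and 5 lower (hcfc1a, hcfc1b, kdm6al, wdr5, ctcf). ctcf, an insulator protein that bounds domains within Hox clusters, had 51.4 to 84.0 CPM on day 8 and 41.4 to 56.7 CPM on day 14, with a log2 difference of −0.48 (adjusted p 0.0856) and of −0.59 (adjusted p 9.45e-04) with the block.

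Retinoic acid is an inducer of anterior Hox genes, and 1 of the 8 genes of its pathway with a value was called (12.5%, against 25.3% of all genes). The receptor raraa rose from 4.71, 2.70, 3.10 and 4.26 CPM to 8.72, 11.1 and 6.76 CPM, with a log2 difference of 1.27 (SE 0.25, adjusted p 0.003), and this call held in all 17 alternative fits. The receptor rarab, at 14.8 to 21.7 CPM over both days, was not called (log2 difference −0.17, adjusted p 0.517). cyp26b1, which degrades retinoic acid, had 5.33 to 11.9 CPM on day 8 and 4.84 to 6.15 CPM on day 14 (log2 difference −0.58, adjusted p 0.12, and −0.59 with an adjusted p of 0.0346 in the block). The synthesising enzymes aldh1a2 and aldh1a3 had no value. Of the caudal and ParaHox genes, which act upstream of or beside the Hox clusters, cdx1a, cdx1b and gsx1 had a value, at 0.895 to 6.78 CPM, and 0 were called by edgeR, by DESeq2 or at an unadjusted p below 0.05. The cofactors pknox2 and tgif1 were not called, with log2 differences of 0.27 and −0.36, and tgif1 was called lower with the block (−0.43, adjusted p 0.0206).

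Few genes of other positions had a value, and many of the listed names were not found, so nothing is said of those. Of 19 homeobox and forkhead genes that mark the head in front of the Hox territories, 8 were found by name. Of these, otx1 and emx3 had a value. otx1 had 0.109 to 0.443 CPM on day 8 and 0.570 to 1.22 CPM on day 14 (log2 difference 1.75, adjusted p 0.0281), at few counts, and lost its call without replicate 4 of day 8 (0.0652), without replicate 2 (0.107) or 4 (0.109) of day 14 and without TMM scaling (0.054). emx3 had 1.41 to 2.11 CPM and 2.56 to 4.58 CPM (log2 difference 0.88, adjusted p 0.0382), and was not called with the block (adjusted p 0.0672). It also lost its call without replicate 2 (0.0661), 3 (0.0637) or 4 (0.0715) of day 8 without replicate 1 (0.0743) or 4 (0.2) of day 14, and without TMM scaling (0.125). Of 6 listed hindbrain segment regulators 2 were found by name and 1, egr2a, had a value. It ranged from 2.07 to 13.3 CPM on day 14 alone and was not called.

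Of 23 listed appendage and trunk genes, 16 were found by name and 5 had a value, of which 1 was called (20%, against 25.3% of all genes). tbx15, a gene of limb and skin mesenchyme, had 17.4 to 21.9 CPM and 23.6 to 31.0 CPM (log2 difference 0.47, adjusted p 0.0473), close to the threshold, and was lost in 11 of 17 alternative fits, with adjusted p up to 0.269. shox, msx1b, msx3 and tbx4 were not called.

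**Figure D5:**
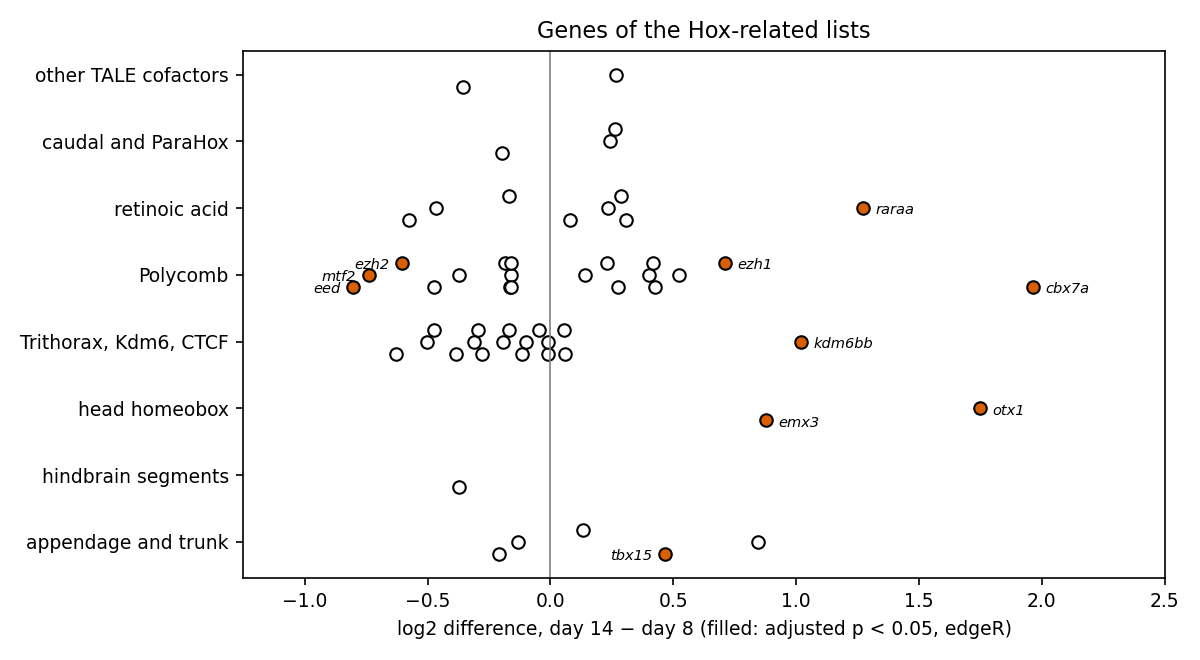
Log2 difference between day 14 and day 8 for the 57 listed regulators, cofactors and positional genes with a value, 1 point a gene, by list. Filled points were called by edgeR, with cbx7a farthest to the right and eed farthest to the left among them.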

How the data were processed

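RNA of 7 PAC2 libraries was sequenced. Per the labels and the paper's methods, the authors obtained estimated counts by pseudo-alignment with Kallisto (Ensembl, GRCz11), added up the transcripts of each gene, and deposited the 17570 genes left by edgeR's filter on low expression. The deposited matrix is titled normalized, but its totals differ between libraries and 48.0% to 52.3% of its values are whole numbers, so it was treated as estimated counts, which were rounded to whole numbers.

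Testing used edgeR 4.0.16 in R 4.3.3 (TMM, estimateDisp, glmQLFit with robust estimation, glmQLFTest), with growth phase as the only term, as in the study, and Benjamini-Hochberg adjustment over all genes. Tests are two-sided. limma 3.58.1 on log2(CPM + 1) and DESeq2 1.42.0 were alternatives, and plots were made in matplotlib 3.10.9 under Python 3.11.15. The scripts were tested on simulated data.

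A few genes that the rule or the lists name are not reported here, and only the figures for all genes include them. The genes and lists were chosen with earlier results of these data known. Values in every library are given for called genes and for others that fill a place in a cluster. The rule also named the 10 genes of highest level per kilobase. It could not be applied, since transcript lengths were not used here, and for the same reason sums are of CPM. Gene names were found for 15073 genes (85.8%). RefSeq of GRCz12tu was used only for which genes overlap, and coordinates and sequences were not used.

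Since the replicates differed, per the protocols in the labels, in passage and starting day, libraries of the same number were taken as pairs. After the group means were removed, the pairs correlated over genes by 0.302, −0.121 and 0.376 in replicates 1, 2 and 4, and by −0.329 to 0.339 between different numbers. The alternatives were the replicate block, other scalings, pseudocounts (0.5, 5) and tests, a filter at 1 CPM, no robust estimation, and each library left out. The newer quasi-likelihood form of edgeR was added after seeing the data.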

Additional observations from a re-analysis of the deposited data

Results flagged for a closer look

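HOXB2 in replicate 3 of day 8 (19.1 CPM) stood apart from replicates 1, 2 and 4 of day 8 (15.1 to 15.6 CPM). Its gap to the nearest library was 0.867 of the range of the day 8 libraries, above Dixon's critical value for 4 samples. It was the only library that passed this limit among 25 sets of 4 day 8 values, and chance gives about 1 in 20. Without that library the log2 difference of HOXB2 was −0.41 (edgeR adjusted p 0.0662), instead of −0.50 (adjusted p 0.0380).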

How the results depend on the processing

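With the replicate block, 8 of the 17 genes were called instead of 3 (4 Hox instead of 2, 4 meis and pbx instead of 1), and 18 of the other listed genes instead of 10. Without TMM scaling these counts were 2, 2, 0 and 5, and DESeq2 called 2 meis and pbx genes. With 1 library left out in turn they ranged from 0 to 4 for all 17 genes, from 0 to 1 for Hox, from 0 to 3 for meis and pbx and from 6 to 11 for the other listed genes. In these fits 2647 to 4681 of all 17570 genes were called, against 4445 with every library. The cause was not tested, and such fits also have fewer samples. Direction turned for HOXC10 without TMM scaling (−0.033) and for HOXB4 with libraries left out (−0.20 to 0.029). Without TMM scaling the log2 ratios of sums moved to 0.057 for HOXA3 alone in HoxA, 0.041 for HoxB, −0.094 for HoxC, 0.038 for all Hox genes, −0.28 for paralog group 3 and 0.072 for paralog group 5. A limit of 0.5 CPM left all 17 genes detected in some growth phase and one of 5 CPM left 11, against 14 at 1 CPM. The newer quasi-likelihood form, added after seeing the data, called 4 of the 17 genes, with HOXC13 as the additional one. Sums per kilobase and their alternative were not run. The block changed no other call of the 17 genes than those given beside each gene.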
